A study of Mus musculus with 10 samples.

Results

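The genes described here encode the TGF-β ligands (Tgfb1, Tgfb2 and Tgfb3), the latent TGF-β binding proteins (Ltbp1, Ltbp2, Ltbp3 and Ltbp4) and the TGF-β receptors (Tgfbr1, Tgfbr2 and Tgfbr3). They were chosen by gene name, and all 10 were found among the 55401 genes of the tables. They were measured by RNA sequencing in the left ventricle (LV) of wild-type mice at 4 weeks of age. Of these mice, 5 had undergone neonatal ascending aorta constriction (nAAC), in which the ascending aorta is narrowed surgically in newborn mice so that the young LV works against a pressure overload. The other 5 had undergone a sham operation as newborns. All 10 are labelled WT and were suckled by their mothers. The methods of the study state, for its mice in general, that WT animals were bred from AHR+/- mice with a C57BL/6 background and that the sexes were assigned at random. Each library was made from whole LV tissue of 1 mouse, and the operation was the only labelled difference. The study sequenced these ventricles to look for targets of AHR, the aryl hydrocarbon receptor, under pressure overload.

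TGF-β is made as a precursor whose propeptide stays attached to the mature dimer and keeps it inactive. This latent complex is usually secreted bound to a latent binding protein, which anchors it to fibrillin and fibronectin in the extracellular matrix. Integrins, thrombospondin or proteases release the ligand, which binds the receptor serine/threonine kinases TGFBR2 and TGFBR1, helped by the coreceptor TGFBR3 (betaglycan), and SMAD2 and SMAD3 carry the signal to the nucleus with SMAD4. In the heart the pathway is best known for turning fibroblasts into matrix-producing myofibroblasts.

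In nAAC mice the ligands, 3 of the 4 latent binding proteins and the signaling receptors were higher than in sham mice, while the coreceptor gene Tgfbr3 was lower. The calls of Tgfbr1, one of the signaling receptors, and of Tgfbr3 depended on the processing. The values are FPKM (fragments per kilobase of transcript, scaled to the library), a level per transcript length. Differences were tested with limma on log2(FPKM + 1), so that a log2 fold change (FC) understates the change of low genes. All 10 genes passed the filter on low values, a mean FPKM of at least 1 over the 10 libraries, although Ltbp2 passed it only through the nAAC mice. At an adjusted p below 0.05, 8 of the 10 rose and 1 fell, against 27.1% and 4.6% of all 11867 genes tested. Differentially expressed genes (DEGs), with an absolute log2 FC above 1 in addition, numbered 6, all up-regulated, against 5.01% up-regulated and 0.893% down-regulated among all genes tested. In 8 of the 10 the lowest nAAC value exceeded the highest sham value, as it did in 18.9% of all genes tested, and in none did all nAAC values lie below the sham values, as they did in 3.46%. The median of the 10 log2 FCs was 1.17, beside 0.22 for the genes tested as a whole.

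**Figure D1:**
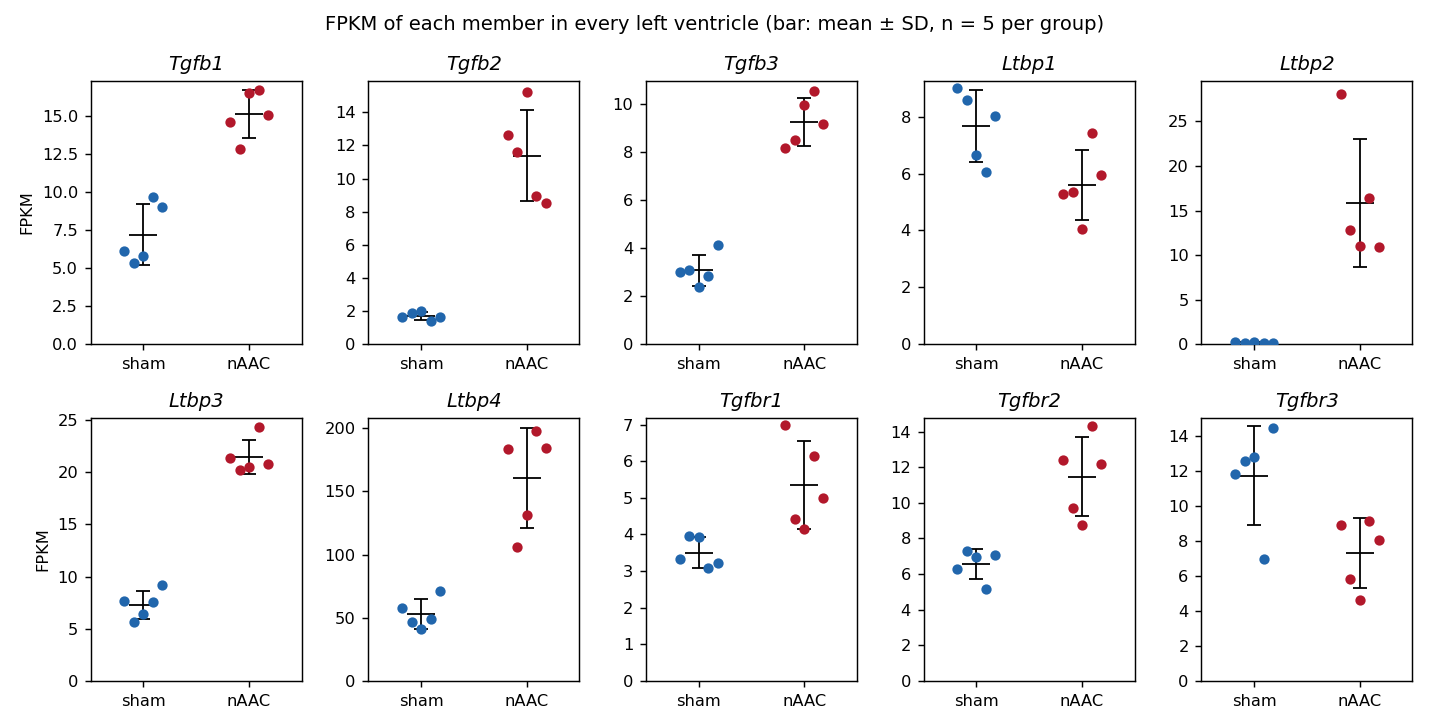
FPKM of the 10 genes in each mouse (vertical axes in FPKM, starting at 0 and scaled separately). Points are single mice, with 5 sham mice in blue and 5 nAAC mice in red, and black bars give the mean ± SD. The groups are separated in every panel except those of Ltbp1 and Tgfbr3, where nAAC values lie lower on average and overlap the sham values.

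The 10 libraries differed in ways that bear on these values. Sham libraries held 11182 to 11721 genes at 1 FPKM or above, and nAAC libraries 11889 to 12455. Genes of the mitochondrial genome made up 33.7% to 49.8% of the TPM in sham mice and 32.8% to 39.9% in nAAC mice. FPKM are shares of a library, and when libraries were rescaled by median ratios the median over the genes tested moved from 0.22 to -0.02 (log2), so directions were checked under both. That scaling also turned the split of 3211 higher and 546 lower genes into 1464 and 1522. Sham replicate 4 lay apart from the other libraries on the second principal component of all genes tested, at -45.2 against -15.1 to 21.1. The female-expressed transcript Xist was at 14.8 FPKM or above in 4 nAAC mice and measured 10.6 in sham replicate 5 and 3.70 in sham replicate 4, while the other libraries had at most 0.0232, so the sexes were not balanced as far as Xist tracks them. Nothing in the labels names separate litters or dates, and the p-values measure the spread between these mice.

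Among the ligands, Tgfb2 showed the largest increase. Tgfb2 (ENSMUSG00000039239; chromosome 1 of GRCm38, 186622792 to 186705989, minus strand) encodes the ligand that is also required for the formation of the cardiac valves and septa in the embryo. Its FPKM in nAAC replicates 1 to 5 was 12.6, 11.6, 15.2, 8.97 and 8.55, and in sham replicates 1 to 5 it was 1.62, 1.90, 2.02, 1.38 and 1.62. The groups lay far apart, and the spread was wider in nAAC mice. The means were 11.4 ± 2.74 and 1.71 ± 0.255 FPKM (SD, n = 5 each), a ratio of 6.67. On the log2 scale the FC was 2.17 ± 0.15 (SE, with an adjusted p of 5.13e-07 in limma).

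Tgfb1 (ENSMUSG00000002603; chromosome 7, 25687002 to 25705077, plus strand), the ligand most often studied in cardiac fibrosis, was the most abundant of the 3 in every mouse. It was measured at 14.6, 12.8, 16.5, 16.7 and 15.1 FPKM in nAAC replicates 1 to 5 and at 6.10, 5.34, 5.77, 9.69 and 8.999 in sham replicates 1 to 5. Sham replicates 4 and 5 stood above the other sham mice, and all sham mice stayed below the nAAC mice. Replicates 4 and 5 were also the sham mice with Xist, at 3.70 and 10.6 FPKM. Their mitochondrial shares of the TPM, 33.7% and 38.3%, were the lowest of the sham mice, against 46.5% to 49.8% in the others. nAAC replicate 2, which had the lowest nAAC value of Tgfb1, was the nAAC mouse without Xist (0.0232 FPKM). What part sex or these shares have in the spread of Tgfb1 within a group was not tested. The mean rose from 7.18 ± 2.01 to 15.1 ± 1.57 FPKM (SD, n = 5 each). Its log2 FC was 1.01 ± 0.16 (SE, with an adjusted p of 4.28e-04 in limma). This lies just past the fold threshold for DEGs, and after median-ratio scaling the log2 FC was 0.74 with an adjusted p of 0.00125 (limma), so that Tgfb1 still rose but was no longer a DEG. The same held without nAAC replicate 3 or 4 or sham replicate 1, 2 or 3, with log2 FCs of 0.92 to 0.98. It also held with Xist as a covariate (log2 FC 0.75, adjusted p = 0.00494, limma), after upper-quartile scaling (0.77) and with GC and length trends removed (0.69).

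Tgfb3 (ENSMUSG00000021253; chromosome 12, 86056745 to 86079041, minus strand), a ligand also needed for closure of the palate, had 8.15, 8.48, 9.96, 10.5 and 9.16 FPKM in nAAC replicates 1 to 5. In sham replicates 1 to 5 it had 3.02, 3.09, 2.36, 2.84 and 4.12. The nAAC values were tight, and all of them exceeded the sham values. The mean rose from 3.09 ± 0.646 to 9.26 ± 0.995 FPKM (SD, n = 5 each), with a log2 FC of 1.34 ± 0.13 (SE, with an adjusted p of 6.31e-06 in limma).

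The balance of the ligands moved with their sum. The summed FPKM of the 3 ligands ran from 10.2 to 14.7 in sham mice and from 32.8 to 41.7 in nAAC mice. Tgfb2 made up 14.9% ± 4.404 of that sum in sham mice and 31.7% ± 5.72 in nAAC mice (SD, n = 5 each), and Tgfb1 59.2% ± 6.73 and 42.4% ± 3.43, without overlap for either gene. Tgfb3 held 25.9% ± 3.96 in sham mice and 26.0% ± 2.58 in nAAC mice. Ratios within a library do not depend on the scaling between libraries, and 5 of them were compared by two-sided exact permutation tests with p adjusted over the 5. The log2 ratio of Tgfb2 to Tgfb1 was -1.98 ± 0.571 in sham mice and -0.43 ± 0.382 in nAAC mice (SD, n = 5 each), higher in every nAAC mouse (exact p = 0.0079, adjusted p = 0.0132). The log2 ratio of Tgfb3 to Tgfb1 was -1.17 ± 0.362 and -0.70 ± 0.0888, with overlapping groups (exact p = 0.0159, adjusted p = 0.0198). Both ratios were lowest in sham replicate 4, and without that mouse their differences fell from 1.55 to 1.36 and from 0.47 to 0.33, with adjusted p of at most 0.0397 in the 10 tests that each left out a mouse (exact permutation).

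**Figure D2:**
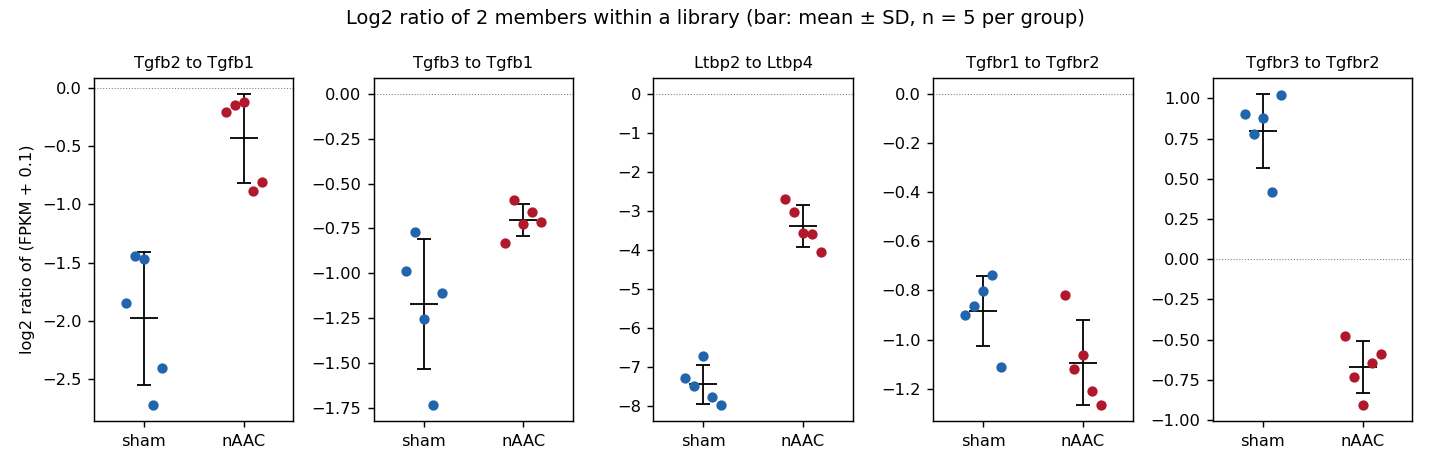
Log2 ratios of the FPKM of 2 genes within each library, after adding 0.1 to both (vertical axes, scaled separately, with a dotted line at 0). Points are single mice, 5 sham in blue and 5 nAAC in red, and bars give the mean ± SD. Tgfb2 to Tgfb1 and Ltbp2 to Ltbp4 are higher in every nAAC mouse, and Tgfbr3 to Tgfbr2 is above 0 in every sham mouse and below 0 in every nAAC mouse.

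The stretches before the starts of 3 genes are shown, namely Tgfb1 as the most abundant ligand gene, and Tgfb2 and Ltbp2 as the ligand and binding protein genes with the largest increases. They are RefSeq promoter windows of GRCm38.p6, ended where the gene of the tables begins and printed 5′ to 3′ on the strand of the gene. Capitals mark matches, on either strand, to one of 4 short motifs. The letters GGGCGG are those of a GC box. The letters TATAAA are those of a TATA box. A SMAD-type element was searched as CAGACA. The core of the element bound by AHR was searched as GCGTG.
Tgfb1, chr7:25686752-25687001, plus strand: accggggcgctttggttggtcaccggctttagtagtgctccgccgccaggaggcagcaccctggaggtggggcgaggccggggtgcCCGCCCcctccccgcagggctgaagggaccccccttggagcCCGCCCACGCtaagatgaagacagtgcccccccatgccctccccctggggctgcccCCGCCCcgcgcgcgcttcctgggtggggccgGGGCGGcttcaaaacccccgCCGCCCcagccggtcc
Tgfb2, chr1:186705990-186706239, minus strand: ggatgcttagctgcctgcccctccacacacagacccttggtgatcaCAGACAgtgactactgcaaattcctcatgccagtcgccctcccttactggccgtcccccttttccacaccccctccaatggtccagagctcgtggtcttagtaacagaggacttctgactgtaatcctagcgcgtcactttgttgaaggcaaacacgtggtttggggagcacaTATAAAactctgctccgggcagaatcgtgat
Ltbp2, chr12:84876533-84876741, minus strand: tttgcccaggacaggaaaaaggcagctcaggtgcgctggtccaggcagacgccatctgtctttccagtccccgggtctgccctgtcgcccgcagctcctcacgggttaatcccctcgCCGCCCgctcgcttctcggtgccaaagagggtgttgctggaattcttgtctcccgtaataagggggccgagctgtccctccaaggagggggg

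The Tgfb2 stretch held TATAAA 31 bases before the RefSeq start and CAGACA 204 bases before it. The Tgfb1 stretch held no TATAAA, but matched the GC box at 5 places, between 164 and 16 bases before the start, and the AHR core once, 118 bases before it, where the 2 matches share a base. The Ltbp2 stretch, which stops 42 bases before the RefSeq start, matched the GC box 133 bases before that start. Over the windows of 300 bases in the table, which reach 250 bases before and 50 after each start, 8 of the 10 genes had an entry, Tgfb3 and Tgfbr3 being those without. Of the 12 windows of these genes, 1 held the TATA box letters, beside 13.6% of all 32851 windows. The GC box letters were in 6 of the 12, beside 35.7%. Those of the SMAD-type element were in 4, beside 21.0%, and the AHR core was in 6, beside 32.4%. Counted by gene, these were 1, 4, 4 and 5 of the 8, for which the shares of windows are no like measure. Some genes have several windows, and a match is a description of letters and not of binding.

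Among the latent binding proteins, Ltbp2 was nearly silent in sham mice and was expressed in every nAAC mouse. Ltbp2 (ENSMUSG00000002020; chromosome 12, 84783212 to 84876532, minus strand) encodes a microfibril protein that, unlike its relatives, does not bind latent TGF-β covalently. Its FPKM was 28.1, 12.9, 11.04, 16.4 and 10.9 in nAAC replicates 1 to 5 and 0.269, 0.158, 0.288, 0.122 and 0.178 in sham replicates 1 to 5. No sham mouse reached 0.3 FPKM, and no nAAC mouse lay below 10.9. The means were 15.9 ± 7.20 and 0.203 ± 0.0722 FPKM (SD, n = 5 each), a ratio of 78.2 that rests on low sham values whose counting error is not known. The log2 FC was 3.72 ± 0.21 (SE, with an adjusted p of 1.31e-07 in limma), place 11 of 11867 genes from the highest. Ltbp2 passed the filter on low values only through the nAAC mice, so this p and this place are not independent of its rise. With no filter the adjusted p was 1.77e-05 (limma). The log2 FC was 5.66 with a pseudocount of 0.1. nAAC replicate 1 was the highest, and without it the log2 FC was 3.51.

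Ltbp4 (ENSMUSG00000040488; chromosome 7, 27305136 to 27337692, minus strand), which binds latent TGF-β and takes part in elastic fiber assembly, had the highest level of the 10 genes in both groups. Its FPKM was 184, 106, 131, 198 and 184 in nAAC replicates 1 to 5 and 57.7, 46.3, 40.8, 48.9 and 70.8 in sham replicates 1 to 5. nAAC replicates 2 and 3 were lower than the other nAAC mice and still above all sham mice. The log2 FC was 1.57 ± 0.20 (SE, with an adjusted p of 7.74e-05 in limma), from a mean of 52.9 ± 11.7 to 160.6 ± 39.8 FPKM (SD, n = 5 each).

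Ltbp3 (ENSMUSG00000024940; chromosome 19, 5740904 to 5758532, plus strand), a binding protein with a known role in bone and teeth, ranged from 20.2 to 24.3 FPKM under nAAC, against 5.66 to 9.17 in the sham group. Its log2 FC was 1.45 ± 0.13 (SE, with an adjusted p of 3.47e-06 in limma).

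Ltbp1 (ENSMUSG00000001870; chromosome 17, 75005568 to 75392512, plus strand), the first binding protein found on latent TGF-β1, differed from its relatives. Its FPKM was 5.27, 5.34, 4.05, 7.41 and 5.94 in nAAC replicates 1 to 5 and 9.01, 8.59, 6.64, 6.05 and 8.02 in sham replicates 1 to 5. Of the nAAC mice 4 lay below all sham mice, but nAAC replicate 4 exceeded sham replicates 3 and 4. The log2 FC was -0.40 ± 0.15 (SE, with an adjusted p of 0.0562 in limma), which misses the threshold. Relative to the general shift it was lower, at -0.66 with an adjusted p of 0.00364 after median-ratio scaling (limma). It also passed without nAAC replicate 4 (-0.49, adjusted p = 0.0270, limma) or without sham replicate 4 (-0.47, adjusted p = 0.0237).

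The composition of the binding proteins moved in its minor parts. Ltbp4 made up 77.5% ± 1.90 of their summed FPKM in sham mice and 78.5% ± 3.61 in nAAC mice (SD, n = 5 each). Ltbp1 held 11.4% ± 2.07 in sham mice and 2.81% ± 0.581 in nAAC mice, and Ltbp2 0.310% ± 0.141 and 7.78% ± 2.65, with no overlap for either gene. The sum itself was 68.1 ± 13.5 FPKM in sham mice and 204 ± 45.3 in nAAC mice, most of it Ltbp4. The share of Ltbp1 therefore falls with the rise of the sum as well as with its own level. The log2 ratio of Ltbp2 to Ltbp4 rose from -7.46 ± 0.492 in sham mice to -3.39 ± 0.528 in nAAC mice (SD, n = 5 each; exact permutation p = 0.0079, adjusted p = 0.0132). The size of this difference rests on the pseudocount, since it was 4.07 with 0.1 added and 2.15 with 1 added (adjusted p = 0.0132 for both, exact permutation). By mean FPKM, the order in sham mice was Ltbp4, Tgfbr3, Ltbp1, Ltbp3, Tgfb1, Tgfbr2, Tgfbr1, Tgfb3, Tgfb2 and Ltbp2. The ranges of neighbors overlapped except between Ltbp4 and Tgfbr3, Tgfbr2 and Tgfbr1, Tgfb3 and Tgfb2, and Tgfb2 and Ltbp2. In nAAC mice the order was Ltbp4, Ltbp3, Ltbp2, Tgfb1, Tgfbr2, Tgfb2, Tgfb3, Tgfbr3, Ltbp1 and Tgfbr1, and only Ltbp4 stood clear of its neighbor. Ltbp2 thus moved from the last place to the place after Ltbp3, and Ltbp1 and Tgfbr3 moved to the lower end.

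**Figure D3:**
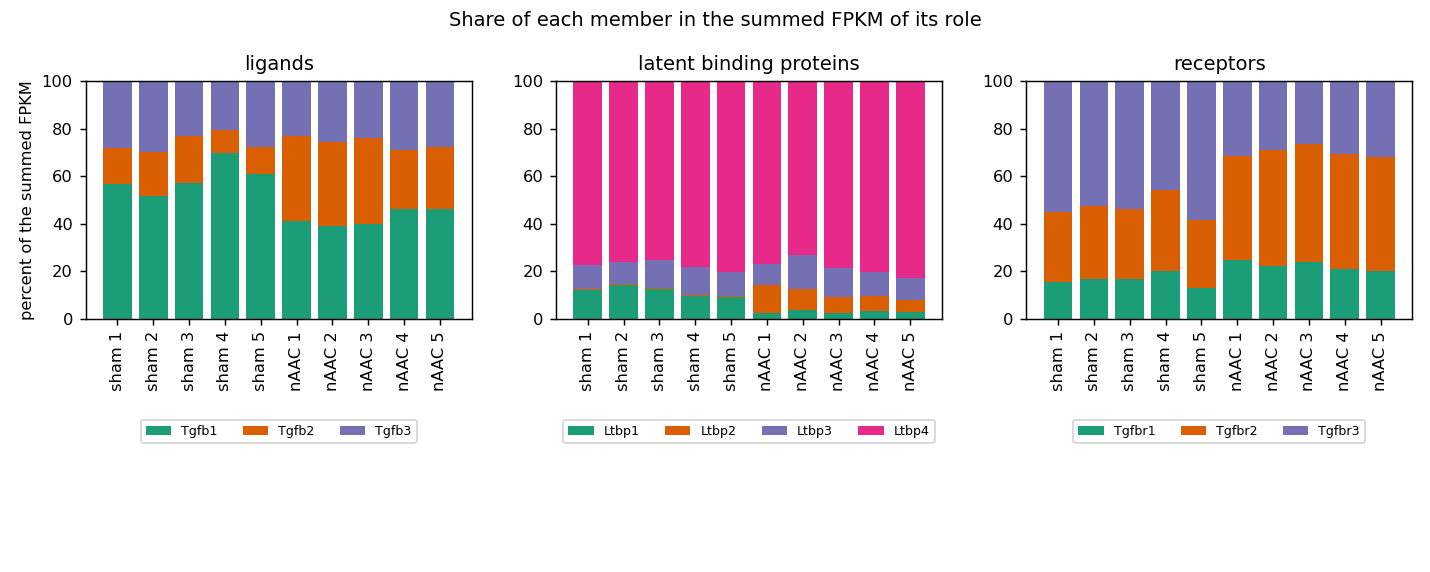
Share of each gene in the summed FPKM of the ligands, the latent binding proteins and the receptors (vertical axis in percent, 1 bar per mouse, 5 sham followed by 5 nAAC). The share of Tgfb2 is 24.8% or more in every nAAC mouse against at most 19.9% in sham mice. That of Ltbp1 is at most 3.70% in nAAC mice against 9.09% or more in sham mice, and that of Ltbp2 is 4.92% or more against at most 0.532%. That of Tgfbr3 is 45.7% or more in sham mice against at most 31.9% in nAAC mice.

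Among the receptors, the kinases and the coreceptor moved apart. Tgfbr2 (ENSMUSG00000032440; chromosome 9, 116084293 to 116175360, minus strand), the kinase that binds the ligand first, was measured at 12.4, 9.72, 8.78, 14.3 and 12.2 FPKM in nAAC replicates 1 to 5. In sham replicates 1 to 5 it was at 6.29, 7.27, 6.94, 5.19 and 7.07. Every nAAC mouse exceeded every sham mouse, with nAAC replicate 3 the closest to them. The log2 FC was 0.71 ± 0.14 (SE, with an adjusted p of 0.00205 in limma), and 0.44 with an adjusted p of 0.0267 after median-ratio scaling.

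Tgfbr1 (ENSMUSG00000007613; chromosome 4, 47353222 to 47414931, plus strand), the kinase that phosphorylates SMAD2 and SMAD3, ranged from 4.15 to 6.99 FPKM under nAAC, against 3.07 to 3.96 in the sham group. The groups did not overlap, but the gap between them was small. The log2 FC was 0.48 ± 0.13 (SE, with an adjusted p of 0.0166 in limma). This call was lost after median-ratio scaling (log2 FC 0.23, adjusted p = 0.268, limma), after upper-quartile scaling (0.26, adjusted p = 0.262) and with Xist as a covariate (0.45, adjusted p = 0.0906). The log2 ratio of Tgfbr1 to Tgfbr2 was -0.88 ± 0.142 in sham mice and -1.10 ± 0.173 in nAAC mice (SD, n = 5 each), with overlapping groups (exact permutation p = 0.0794, adjusted p = 0.0794).

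Tgfbr3 (ENSMUSG00000029287; chromosome 5, 107106570 to 107289629, minus strand), whose product presents ligand, TGF-β2 above all, to TGFBR2, was lower in nAAC mice. Its FPKM was 8.89, 5.81, 4.63, 9.12 and 8.06 in nAAC replicates 1 to 5 and 11.8, 12.5, 12.8, 6.97 and 14.4 in sham replicates 1 to 5. Sham replicate 4 was the only sham mouse within the nAAC range, and the other sham mice lay above all nAAC mice. The mean fell from 11.7 ± 2.82 to 7.30 ± 1.98 FPKM (SD, n = 5 each), with a log2 FC of -0.62 ± 0.20 (SE, with an adjusted p of 0.0351 in limma). The call did not hold in 12 of the 20 alternatives, among them TPM in place of FPKM (log2 FC -0.48, adjusted p = 0.1004, limma), Xist as a covariate (-0.69, adjusted p = 0.0858) and the omission of any of 6 mice. These 6 are nAAC replicates 2 and 3 and sham replicates 1, 2, 3 and 5, without which the log2 FC was -0.61 to -0.49. Without sham replicate 4 it was -0.78 (adjusted p = 0.00431, limma), and after median-ratio scaling -0.89 (adjusted p = 0.00530).

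Within a library the separation was complete. The log2 ratio of Tgfbr3 to Tgfbr2 was 0.80 ± 0.229 in sham mice and -0.67 ± 0.162 in nAAC mice (SD, n = 5 each), a difference of -1.47 (exact permutation p = 0.0079, adjusted p = 0.0132). Tgfbr3 went from the most abundant of the 3 receptor transcripts in every sham mouse to a level below Tgfbr2 in every nAAC mouse. Its share of the summed receptor FPKM was 53.2% ± 4.66 in sham mice and 29.9% ± 2.25 in nAAC mice (SD, n = 5 each). The sum itself ran from 15.2 to 24.7 FPKM in sham mice and from 17.6 to 29.6 in nAAC mice and overlapped between the groups.

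**Figure D4:**
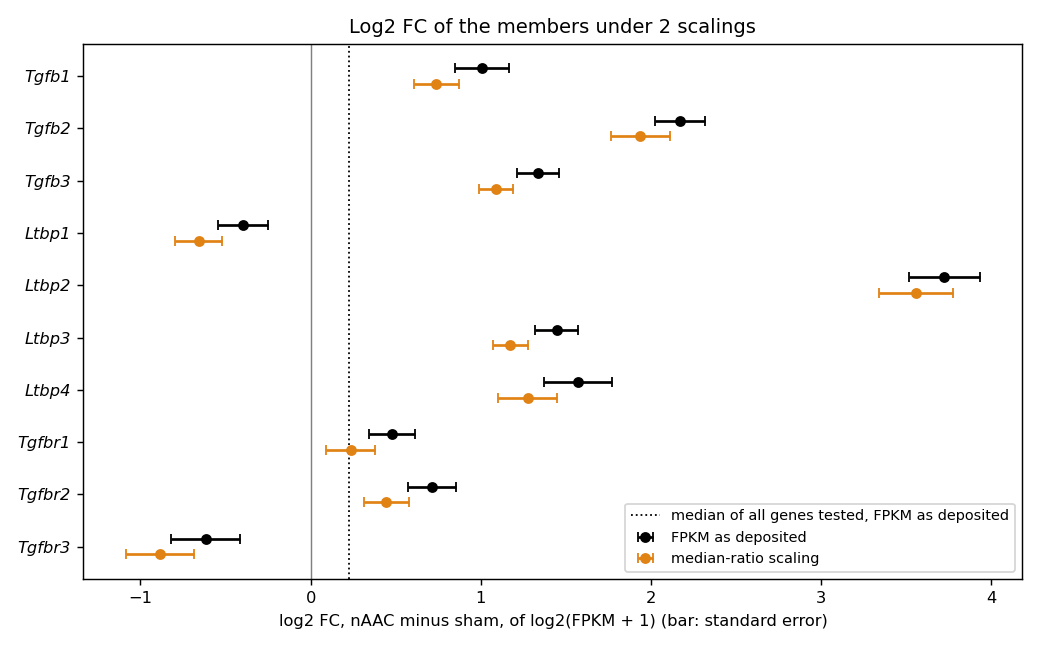
Log2 FC of the 10 genes, nAAC minus sham, on the log2(FPKM + 1) scale (horizontal axis), with standard errors as bars. Black points are FPKM as deposited, orange points are after median-ratio scaling of the libraries, and the dotted line marks the median of all genes tested, 0.22. Scaling moves every gene to the left and turns none across 0, with Ltbp2 at 3.72 and 3.56 and Tgfbr3 at -0.62 and -0.89.

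The genes that handle latent TGF-β outside the cell were described from a list of 21, of which 17 were tested. In this list 13 rose and 1 fell, beside 27.1% and 4.6% of all genes tested, and its median log2 FC was 0.79. Across the alternatives 10 to 16 rose and 0 to 2 fell. The 16 came with TPM, where 5304 of all 12954 genes tested rose. The 2 came with GC and length trends removed, where 1914 of all 11867 fell. The largest increase was in Bgn, the proteoglycan biglycan, with a log2 FC of 2.48, from 55.3 ± 8.28 to 316 ± 72.6 FPKM (SD, n = 5 each). Fmod, the related fibromodulin, had a log2 FC of 1.87, and Thbs1, the thrombospondin that can activate latent TGF-β, one of 1.86, from 1.53 ± 0.604 to 8.81 ± 5.18 FPKM (SD, n = 5 each). Of the cell-surface anchors of latent TGF-β, Lrrc32 rose with a log2 FC of 0.79, from 2.72 ± 0.667 to 5.36 ± 0.486 FPKM (SD, n = 5 each). Nrros, the anchor of macrophages, had a log2 FC of 0.40 (adjusted p = 0.0597, limma). Eng, the endothelial coreceptor endoglin, rose with a log2 FC of 0.54. Itgav, the αV subunit of the integrins that release TGF-β1 and TGF-β3, had a log2 FC of 0.39 (adjusted p = 0.0850, limma). Itgb6, one of its partner subunits, was the gene that fell, with a log2 FC of -0.38 (adjusted p = 0.0455, limma), from 1.55 ± 0.326 to 0.971 ± 0.294 FPKM (SD, n = 5 each). It passed the filter on low values only through the sham mice, and with no filter its call was lost (adjusted p = 0.0986, limma). The call was also lost without nAAC replicate 1, 2, 3 or 4 or sham replicate 1 or 2, with log2 FCs of -0.40 to -0.29.

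In the list of SMAD genes and their regulators, Pmepa1, Bambi, Tgif1 and Smad7 rose, while Smad2, Smad3 and Smad4 did not pass the test. Of 20 genes in this list, 19 were tested, and 9 rose in limma, beside 27.1% of all genes tested, with a median log2 FC of 0.34. None fell at an adjusted p below 0.05, beside 4.6% of all genes tested. None fell at an unadjusted p below 0.05 either, a threshold for which the share over all genes is not given here. After median-ratio scaling 6 rose and 1 fell, while 1464 of all 11840 genes tested rose and 1522 fell. Across the alternatives 6 to 13 rose, the 13 with TPM, where 5304 of all 12954 genes tested rose. The signal carriers had log2 FCs of 0.03 for Smad2, 0.20 for Smad3 and 0.05 for Smad4 (adjusted p = 0.912, 0.220 and 0.807, limma), and after median-ratio scaling these were -0.20, -0.014 and -0.23. The largest increases were in Pmepa1, which holds SMAD2 and SMAD3 back, at 1.43, the pseudoreceptor Bambi at 1.23 and the SMAD corepressor Tgif1 at 1.13. Pmepa1 went from 5.02 ± 0.353 to 15.2 ± 0.541 FPKM (SD, n = 5 each), with little spread in either group. Smad7, the inhibitory SMAD that TGF-β itself induces, rose from 2.87 ± 0.0638 to 5.93 ± 0.859 FPKM (SD, n = 5 each), or by 0.83 on the log2 scale (adjusted p = 8.77e-05, limma). In nAAC replicate 1 Bambi was at 2.51 FPKM, below the highest sham value of 2.998.

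Genes known to be induced by TGF-β rose together in these samples. Of 20 genes in this list, 19 were tested and all 19 rose, 16 of them as DEGs, with a median log2 FC of 1.54. Among all genes tested 27.1% rose and 5.01% were up-regulated DEGs. Nox4 and Comp passed the filter on low values only through the nAAC mice, with sham means of 0.388 and 0.901 FPKM. The list holds the collagen genes and Fn1 that the study named from these same libraries, so it is not independent evidence of its direction. The study named them as DEGs regulated by AHR. For Col1a1 and Fn1 it reported AHR binding in human cardiac fibroblasts treated with kynurenine, an AHR ligand. In fibroblasts of nAAC mice it reported that kynurenine injection raised both genes, an effect lost in AHR-/- mice. Which pathway lies behind their rise in these libraries was not tested. The largest increase was in Cilp, a matrix protein of fibroblasts, with a log2 FC of 4.26 and a mean FPKM of 1.86 ± 0.251 in sham mice and 57.5 ± 21.9 in nAAC mice (SD, n = 5 each). Ccn2, the connective tissue growth factor, had a log2 FC of 3.80, and Postn, the matricellular protein periostin, one of 3.78. After median-ratio scaling 17 of the 19 passed as higher, beside 1464 of all 11840 genes tested.

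**Figure D5:**
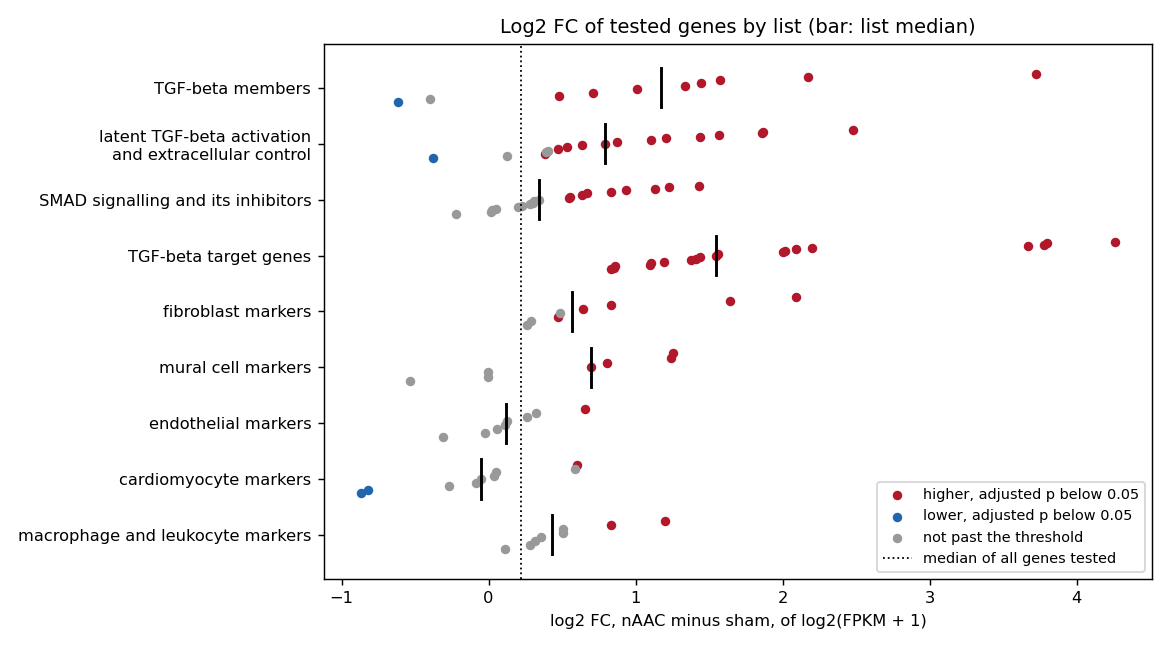
Log2 FC, nAAC minus sham, of each tested gene by list (horizontal axis on the log2(FPKM + 1) scale). Red points are higher and blue points lower at an adjusted p below 0.05, grey points did not pass it, short black bars are list medians and the dotted line is the median of all genes tested, 0.22. The medians of the 10 TGF-β genes and of the TGF-β target genes, 1.17 and 1.54, lie farther right than that of the fibroblast markers, 0.57. Of the other TGF-β lists, that of latent TGF-β has a median of 0.79 and that of the SMAD genes 0.34, left of the fibroblast markers. The mural cell markers have 0.69.

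The profile of each of the 3 genes with the largest changes was compared with all other genes tested, by the root mean square difference of log2 values centered on each gene's mean over the 10 libraries. Nearest to Ltbp2 were Ccn2, Comp and Postn, at 0.329, 0.331 and 0.368. Nearest to Tgfb2 were P3h2, a collagen-modifying hydroxylase, Enah, an actin regulator, and Nkd2, a Wnt antagonist, at 0.172, 0.198 and 0.212. Nearest to Ltbp4 were Islr, Fbln2, an elastic fiber protein, and Lrp1, an endocytic receptor, at 0.185, 0.200 and 0.203. These 9 genes had log2 FCs between 1.48 and 3.80. The difference between the groups is part of the measure, so log2 FCs close to those of the 3 genes follow from the choice. Comp, P3h2 and Nkd2, like Ltbp2, had sham means below 1 FPKM.

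Markers of the cell types in the tissue were measured beside these genes, since in bulk LV a larger number of cells of a type and more RNA per cell cannot be told apart. The counts of these lists before any alternative are to be read beside the 27.1% of all genes tested that rose and the 4.6% that fell. Under the alternatives the shares over all genes differed as well. After median-ratio scaling 1464 of 11840 genes rose and 1522 fell, and with TPM 5304 of 12954 rose and 383 fell. With GC and length trends removed 1677 of 11867 rose and 1914 fell. Of 8 fibroblast markers 5 rose, or 3 to 6 across the alternatives, with a median log2 FC of 0.57 and a summed FPKM of 646 to 907 in sham mice and 934 to 1381 in nAAC mice. Pdgfra and Tcf21, both known from cardiac fibroblasts, had log2 FCs of 0.26 (adjusted p = 0.240, limma) and 0.84 (adjusted p = 4.28e-04). Dcn and Col1a1 stand both in this list and in a TGF-β list. Of 7 mural cell markers 4 rose, or 2 to 4 across the alternatives with 0 or 1 lower, and their sums ranged from 160 to 293 in sham mice and from 200 to 309 in nAAC mice. Of 8 macrophage and leukocyte markers 2 rose, or 0 to 4 across the alternatives, with sums of 94.1 to 200 and 141 to 283. Of 8 endothelial markers 1 rose, or 0 to 2 across the alternatives, with sums of 474 to 794 and 379 to 792. Of 9 cardiomyocyte markers 1 rose and 2 fell, or 0 to 2 and 1 to 4 across the alternatives, and each of the 9 was at 7.39 FPKM or above in every library. The 5 epicardial and mesothelial markers and the 1 tested of 5 platelet markers did not pass the test in limma, and the sums of both lists overlapped between the groups, from 6.55 to 11.5 in sham and 7.48 to 24.0 in nAAC mice for the first and from 11.6 to 21.2 and 14.4 to 25.5 for the second. The part of these shifts in the changes of the TGF-β genes was not tested.

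Atrial transcripts differed between single mice. Of the 5 atrial markers 4 were tested and 1 rose, Nppa, which the stressed ventricle also expresses. Myl7, the atrial myosin light chain, was at 1.10, 54.0, 79.8, 11.9 and 0.654 FPKM in nAAC replicates 1 to 5 and at 22.3, 3.89, 3.65, 1.16 and 7.33 in sham replicates 1 to 5. In nAAC replicates 1 and 5, where Myl7 was below every sham mouse, Ltbp2 was at 28.1 and 10.9 FPKM, Tgfb2 at 12.6 and 8.55, and Tgfbr3 at 8.89 and 8.06. In nAAC replicates 2 and 3, where Myl7 was highest, Tgfbr3 was at 5.81 and 4.63 FPKM, Tgfbr2 at 9.72 and 8.78, Tgfbr1 at 4.41 and 4.15, and Ltbp4 at 106 and 131. For each of these 4 genes these were the lowest nAAC values. Ltbp3 was also lowest in these mice, at 20.2 and 20.5 FPKM, but close to the next nAAC mouse at 20.8. Ltbp2 was at 12.9 and 11.04 FPKM in these mice and Tgfb2 at 11.6 and 15.2. What part the atrial transcripts have in these values was not tested.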

How the data were processed

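Each mouse has a table of genes with columns for coverage, FPKM and TPM. The deposited FPKM are normalized per transcript length and library, the deposited TPM are the same values rescaled by the authors to 1000000 per library, and the deposited coverage, the read depth per base, was not used. The build is mm10 per the submitters' processing notes, and start and end of 99.4% of shared genes matched GENCODE M21. Aligner, quantifier and use of strand are not given in the sources used here. Read totals are unknown, so no interval for counting error is given and the spread between mice is the only measure of precision.

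Rows sharing a gene ID were summed. The 11867 genes whose FPKM averaged 1 or more were tested on log2(FPKM + 1) with limma 3.58.1 (R 4.3.3, empirical Bayes trend, Benjamini-Hochberg adjustment over all genes tested, no covariate). The text of the paper names no test for these libraries but defines DEGs by an adjusted p below 0.05 and a log2 FC above 1, applied here in both directions. Ratios of 2 genes were compared by two-sided exact permutation tests, for which 5 against 5 mice allow no p below 0.0079. On simulated data for nAAC against sham with 11867 genes, 192 of 200 genes changed by 1.5 on the log2 scale were called, and 52 of 200 changed by 0.5. The changed genes were drawn only from those at higher levels. They were far fewer than the 3757 genes that passed in the real data, so these rates do not give the sensitivity there. Promoter windows came from RefSeq (GRCm38.p6). Figures were drawn with Python 3.11.15 and matplotlib 3.10.9.

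The 10 genes, the gene lists, the ratios and the tests were chosen with earlier results of these data known. Genes named from the lists are the 3 largest increases and 2 largest decreases past the threshold in each, direct partners of TGF-β, and the 3 genes with the nearest profile. Cell markers named by gene, and Xist, are given as context. The alternatives changed the scaling (median-ratio, upper-quartile, TPM, or without mitochondrial genes), the filter (none), the pseudocount (0.1), the covariates (replicate number or Xist), the threshold (adjusted p below 0.01) or the mice (each left out once). Removal of GC content and length trends was added after seeing the data, as were the counts of lists and shares of sums under such settings. The plasma metabolomics and the other sequencing experiments of the study were not analysed here.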

Additional observations from a re-analysis of the deposited data

Results flagged for a closer look

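In 86 groups of 5 values (log2 values of the 10 genes and of the named pathway genes, ratios and shares), 6 held a mouse at 1 end of the group whose distance to the next mouse exceeded 0.71 of the range, where chance gives about 4.3, or 1 group in 20. Sham replicate 4 accounted for 4 of them, as the lowest sham mouse in Tgfbr3 (gap 0.72 of the range), Smad4 (0.72) and Smad7 (0.80) and the highest in Pmepa1 (0.74). Its log2 value of Tgfbr3 was 2.99 against 3.68 for the next sham mouse, and the same library lay apart on the second principal component. nAAC replicate 1 was the lowest nAAC mouse in Bambi (0.75) and in the share of Tgfbr2 in the receptor FPKM (0.71), at 43.9% against 48.2% for the next.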

How the results depend on the processing

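Of the 10 genes none changed direction under any of the 20 alternatives, and Tgfb1, Tgfb2, Tgfb3, Ltbp2, Ltbp3, Ltbp4 and Tgfbr2 kept an adjusted p below 0.05 in all of them (limma). The genes that rose numbered 7 after median-ratio or upper-quartile scaling, with Xist as a covariate and at an adjusted p below 0.01, and 8 otherwise, and the DEGs numbered 5 or 6, depending on Tgfb1, whose log2 FC lay on either side of 1. The number that fell, 1, was 2 after both scalings and once trends with GC content and transcript length were removed, when Ltbp1 passed as well. It was 0 with TPM, rescaling without mitochondrial genes, no filter on low values, the replicate block, Xist as a covariate or an adjusted p below 0.01, and from 0 to 2 when a mouse was left out. It was 2 without nAAC replicate 4 or sham replicate 4, and 0 without nAAC replicate 2 or 3 or sham replicate 1, 2, 3 or 5. Over all genes, 3757 passed an adjusted p below 0.05, but 5687 (5304 higher, 383 lower) with TPM, 1983 (1593 higher, 390 lower) with Xist as a covariate and 2132 at an adjusted p below 0.01. The split of 3211 higher and 546 lower became 1464 and 1522 after median-ratio scaling, 1598 and 1358 after upper-quartile scaling and 1677 and 1914 with the trends removed.

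Among the genes handling latent TGF-β, the count that fell was 1, Itgb6, and was 0 with TPM, rescaling without mitochondrial genes, no filter, a pseudocount of 0.1, the replicate block, Xist as a covariate or an adjusted p below 0.01, 2 with the trends removed, and 0 or 1 when a mouse was left out. In the SMAD list it was 0, and 1 after both scalings and with the trends removed. The log2 FC of Smad2 was -0.20 after median-ratio and -0.18 after upper-quartile scaling, -0.13 with Xist as a covariate, -0.13 with the trends removed and from -0.059 to 0.16 when a mouse was left out. That of Smad3 was -0.014 after median-ratio scaling and -0.13 with the trends removed. That of Smad4 was -0.23, -0.20 and -0.18 after the scalings and with the trends removed, and ran from -0.037 to 0.12 when a mouse was left out.

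Nothing in the labels pairs the mice by replicate number. Deviations from the group means correlated by -0.32 to 0.19 between same-numbered mice, and no nAAC mouse correlated best with its own number. With 5 pairs this cannot tell whether same-numbered mice shared a litter or a date. With the replicate block 3426 genes passed in place of 3757. In the paired form of the ratios, an exact sign-flip test that allows no p below 0.0625, the adjusted p was 0.0781 for the differences of 1.55 (Tgfb2 to Tgfb1), 0.47 (Tgfb3 to Tgfb1), 4.07 (Ltbp2 to Ltbp4) and -1.47 (Tgfbr3 to Tgfbr2). The difference of -0.21 for Tgfbr1 to Tgfbr2 passed with a pseudocount of 1 (-0.23, adjusted p = 0.0476, exact permutation) and ran from -0.28 to -0.17 when a mouse was left out. It passed without nAAC replicate 1 or sham replicate 5. The cause of these changes was not tested.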
